A study of Mus musculus with 20 samples.

Results

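The Ugt1a cluster was described from the 8 genes whose symbols are Ugt1a1, Ugt1a2, Ugt1a5, Ugt1a6a, Ugt1a6b, Ugt1a7c, Ugt1a9 and Ugt1a10, all 8 of which had a row among the 55486 genes of both the kidney and the bone marrow count table. The genes were chosen by name, with the difference between oxaliplatin-treated and control mice already known in both tissues, so that difference is given for them as a description with fold changes and standard errors and without a test. The series holds 20 bulk RNA-seq libraries, 5 for each combination of tissue and treatment. The mice were C57BL/6, 10 weeks of age when dosing began and of both sexes according to the methods, although all 20 libraries held Y-linked RNA. The Y-linked gene Ddx3y was at least at 23.0 CPM in kidney and 26.7 CPM in marrow. Xist, an RNA of female cells, was at most at 0.570 and 2.88 CPM, so by these genes every library was male. For 8 weeks the mice were injected intraperitoneally either with oxaliplatin, a DNA-crosslinking platinum compound used in chemotherapy, at a dose of 10 mg/kg dissolved in 5% dextrose, or with 5% dextrose as the vehicle control. Leg bones (tibia and femur) gave the marrow, 6 days after dosing ended, and the collection of the kidneys is not described in the sources used here. The labels name the libraries biological replicates, and the spread between the 5 libraries of a group stands here for the spread between mice. Total counts per library ran from 24393007 to 30925430 in kidney and from 30660153 to 41140527 in bone marrow, so the floor of 3 counts used here equals 0.0900 to 0.130 CPM in kidney libraries and 0.0668 to 0.0975 CPM in marrow libraries. These floors, and the intervals of shares given below for single mice, cover counting error only and not the spread between mice. CPM are counts scaled to a common library size, with library sizes adjusted by the TMM method, and a gene was called at an adjusted p under 0.05 in edgeR's quasi-likelihood test with a change of more than 1.5-fold.

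UDP-glucuronosyltransferases are enzymes of the endoplasmic reticulum that join glucuronic acid, taken from UDP-glucuronic acid, to bilirubin, hormones and drugs, which makes them water soluble for excretion in bile and urine. The Ugt1a locus is built like a cassette: each gene has its own promoter and its own first exon, which encodes the end of the enzyme that binds the substrate, and every first exon is spliced to the same last exons, which encode the end that binds UDP-glucuronic acid. The liver is the main site of glucuronidation, and the kidney, above all its proximal tubule, also carries out the reaction.

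In the GENCODE release 21 annotation of the mouse genome GRCm38 the locus lies on chromosome 1, plus strand, from 88055388 at the start of Ugt1a10 to 88220002 at the end of Ugt1a7c. The first exons follow each other from Ugt1a10 (88055411 to 88056336) through Ugt1a9, Ugt1a7c, Ugt1a6b, Ugt1a6a, Ugt1a5 and Ugt1a2 (88200601 to 88201500) to Ugt1a1 (88211959 to 88212871). The shared exons are exon 2 (88215044 to 88215175), exon 3 (88215795 to 88215882), exon 4 (88216138 to 88216357) and exon 5 (88218127 to 88218997). The joins of first exon and exon 2 are shown because they mark where a read stops telling the members apart: in each line the last 20 bases of the first exon are in lower case and the first 20 bases of exon 2 are in capitals.
Ugt1a1: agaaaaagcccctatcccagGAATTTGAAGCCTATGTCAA
Ugt1a2: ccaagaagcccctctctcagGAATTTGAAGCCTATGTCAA
Ugt1a5: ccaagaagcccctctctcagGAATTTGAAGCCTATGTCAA
Ugt1a6a: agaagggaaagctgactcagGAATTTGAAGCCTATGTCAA
Ugt1a6b: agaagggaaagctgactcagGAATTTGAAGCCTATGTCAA
Ugt1a7c: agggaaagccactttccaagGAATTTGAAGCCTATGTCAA
Ugt1a9: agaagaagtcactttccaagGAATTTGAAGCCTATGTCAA
Ugt1a10: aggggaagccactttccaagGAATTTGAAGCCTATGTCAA
The capitals are the same in all 8 lines, and Ugt1a2 shares its last 20 bases of the first exon with Ugt1a5, as Ugt1a6a does with Ugt1a6b. Over the whole first exon, identity was 94.9% between Ugt1a6a and Ugt1a6b, 86.9% between Ugt1a9 and Ugt1a10 and 80.2% between Ugt1a2 and Ugt1a5, against 57.1% between Ugt1a1 and Ugt1a2. A read had to belong to 1 gene alone to be counted, so the counts of Ugt1a1, Ugt1a2, Ugt1a5, Ugt1a6b and Ugt1a9 rest on the first exon alone, as do 804 of the 809 countable bases of Ugt1a10.

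Ugt1a7c and Ugt1a6a were exceptions to this. Of the 1915 exonic bases of Ugt1a7c that no other annotated gene holds, 915 are its first exon and 998 lie at the end of exon 5, where the other members' models stop earlier, so a read from a longer shared last exon of any member would be counted to Ugt1a7c. Of the 2142 such bases of Ugt1a6a, 1920 are a retained intron behind exon 2 and 95 are in its first exon. Ugt1a1 kept 385 bases, since an antisense gene overlaps the rest of its first exon, and would keep 913 if only genes of the same strand were counted against it. Whether the counting used strand is not stated in the sources used here. Levels of different members are therefore compared per kilobase (kb) of bases that belong to no other gene.

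Promoters are shown for the member with the largest difference (Ugt1a2), for the pair with the most alike promoters (Ugt1a10 and Ugt1a9, 70.9% identity) and for the bilirubin enzyme gene Ugt1a1. They run from 250 bases before to 50 after the start of the gene in RefSeq (GRCm38.p6), where 7 of the 8 members had an entry, and motif matches on either strand are in capitals.
Ugt1a2, chr1:88200361-88200660, plus strand: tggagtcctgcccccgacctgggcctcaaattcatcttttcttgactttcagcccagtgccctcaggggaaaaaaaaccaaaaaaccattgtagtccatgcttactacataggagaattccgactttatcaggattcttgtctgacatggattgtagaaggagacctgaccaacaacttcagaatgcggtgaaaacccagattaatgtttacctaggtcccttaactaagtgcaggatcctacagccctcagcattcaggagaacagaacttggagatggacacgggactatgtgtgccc
Ugt1a10, chr1:88055161-88055460, plus strand: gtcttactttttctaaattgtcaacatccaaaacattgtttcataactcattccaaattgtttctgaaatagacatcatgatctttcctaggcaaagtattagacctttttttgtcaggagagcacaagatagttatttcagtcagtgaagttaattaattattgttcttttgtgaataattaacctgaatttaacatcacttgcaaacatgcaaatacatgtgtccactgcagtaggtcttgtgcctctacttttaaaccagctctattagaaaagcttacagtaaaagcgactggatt
Ugt1a9, chr1:88070529-88070828, plus strand: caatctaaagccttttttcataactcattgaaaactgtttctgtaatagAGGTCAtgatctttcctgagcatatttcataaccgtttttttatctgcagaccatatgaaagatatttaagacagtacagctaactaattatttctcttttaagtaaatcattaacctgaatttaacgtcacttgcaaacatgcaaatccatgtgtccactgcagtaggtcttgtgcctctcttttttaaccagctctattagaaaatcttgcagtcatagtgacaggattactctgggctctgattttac
Ugt1a1, chr1:88211709-88212008, plus strand: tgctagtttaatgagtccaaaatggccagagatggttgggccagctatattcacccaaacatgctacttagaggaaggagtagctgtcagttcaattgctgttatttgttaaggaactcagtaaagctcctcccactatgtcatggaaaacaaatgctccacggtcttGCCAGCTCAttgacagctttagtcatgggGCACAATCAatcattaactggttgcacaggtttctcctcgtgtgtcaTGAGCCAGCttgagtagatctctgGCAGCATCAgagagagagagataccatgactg
The motifs searched were the nuclear receptor motif AGGTCA, the AhR core GCGTG, the HIF core ACGTG, the antioxidant response element core TGANNNNGC and TATAAA. These letters occur in 16.3%, 32.4%, 19.6%, 41.3% and 13.6% of 32851 promoter windows of the same length, in that order, so single matches are common. Ugt1a9 held AGGTCA once, and Ugt1a1 held TGANNNNGC 4 times, at -82, -53, -6 and 18. None of the 5 motifs is in the Ugt1a2 or the Ugt1a10 window.

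In kidney the members fell into 3 patterns. For Ugt1a2 and Ugt1a10 every treated mouse lay above the highest control, Ugt1a1, Ugt1a5 and Ugt1a6a had higher means with overlapping groups, and Ugt1a6b, Ugt1a9 and Ugt1a7c had nearly equal means. All 8 passed the filter on low counts, 3 of them (Ugt1a1, Ugt1a5 and Ugt1a10) only because of the oxaliplatin libraries. The call was met by 5 members, all higher, where 11.5% of the 19293 genes tested were called and 7.68% were called higher. The groups did not overlap for 2 of the 8 members, with oxaliplatin higher, and for 20.7% of all genes tested, 9.69% with oxaliplatin higher. The median log2 fold change was 0.91 over the 8 members and 0.02 over all genes tested. Since the members were chosen with this contrast known, nothing is read from these counts. Bulk RNA does not tell more cells of a type from more RNA per cell.

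Ugt1a2, which belongs with Ugt1a1 and Ugt1a5 to the genes next to the shared exons, was almost silent in control kidney. Its counts were 18, 17, 21, 16 and 15 in control mice 1 to 5, or between 0.607 and 0.907 CPM. With oxaliplatin they were 3525, 196, 185, 378 and 6045 in mice 1 to 5, which is 127, 6.60, 6.65, 13.3 and 181 CPM. Every treated mouse lay above every control, but the treated mice did not form 1 level: mice 1 and 5 were 182 and 261 times the control mean, and mice 2, 3 and 4 were 9.49, 9.56 and 19.1 times. The group means were 0.696 ± 0.12 CPM and 66.9 ± 82 CPM (SD, n = 5 each), with a log2 fold change of 6.59 (SE 1.43). Without mice 1 and 5 the log2 fold change was 3.67 (SE 0.25).

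Ugt1a10, whose first exon lies farthest from the shared exons, differed in the same direction at a lower level. Control counts were 17, 24, 7, 12 and 8, and counts with oxaliplatin were 129, 71, 62, 55 and 211. In CPM the controls lay between 0.302 and 0.915 and the treated mice were at 4.63, 2.39, 2.23, 1.93 and 6.33, so the groups were separate and mice 1 and 5 were again the highest. The means were 0.532 ± 0.25 and 3.502 ± 1.9 CPM (SD, n = 5 each), a log2 fold change of 2.70 (SE 0.39), which was 2.02 (SE 0.33) without mice 1 and 5.

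Ugt1a1 encodes the enzyme that conjugates bilirubin. Its kidney counts were 10, 15, 10, 4 and 7 in controls and 53, 29, 15, 27 and 60 with oxaliplatin, or means of 0.364 ± 0.15 and 1.23 ± 0.59 CPM (SD, n = 5 each). The log2 fold change was 1.75 (SE 0.40), the groups overlapped through treated mouse 3 alone, at 0.539 CPM against a highest control of 0.572 CPM, and all values were low. Without mice 1 and 5 the log2 fold change was 1.17 (SE 0.44).

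Ugt1a5, the closest relative of Ugt1a2 in the first exon, moved far less than Ugt1a2. Its counts were 25, 40, 9, 26 and 30 in controls and 73, 49, 32, 51 and 114 with oxaliplatin. The means were 1.02 ± 0.42 and 2.13 ± 0.90 CPM (SD, n = 5 each), with a log2 fold change of 1.05 (SE 0.33) and overlapping groups. Treated mice 1 and 5, at 2.62 and 3.42 CPM, stood above all others, and without them the log2 fold change was 0.58 (SE 0.34).

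The pair Ugt1a6a and Ugt1a6b, whose enzymes conjugate small planar phenols, did not show the same values. Ugt1a6a counts were 35, 40, 24, 15 and 17 in controls and 58, 67, 33, 49 and 53 with oxaliplatin, a log2 fold change of 0.77 (SE 0.28) with overlapping groups. Most of its countable bases are the retained intron, so these counts say little of its first exon. Ugt1a6b counts were 85, 71, 80, 76 and 78 in controls and 70, 97, 97, 112 and 87 with oxaliplatin, a log2 fold change of 0.02 (SE 0.17). For Ugt1a6b mice 1 and 5 were the lowest treated mice, at 2.51 and 2.61 CPM. The first exons of the pair are 94.9% identical, and reads that align to both are lost from both counts.

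**Figure D1:**
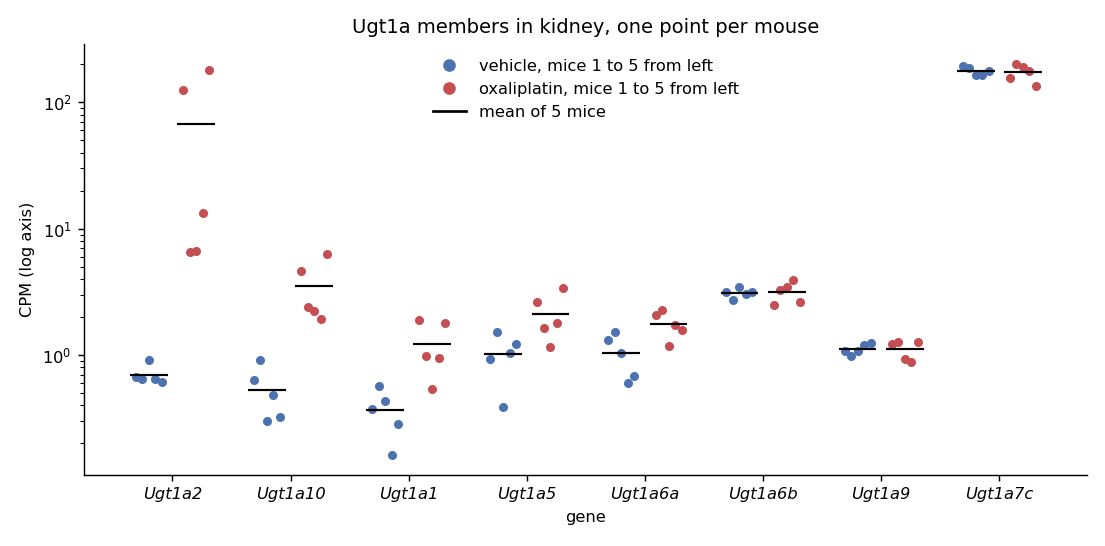
CPM of the 8 Ugt1a members in kidney on a log axis, 1 point per mouse and a line at the mean of 5 mice, for vehicle and oxaliplatin. Ugt1a2 and Ugt1a10 have separate groups, Ugt1a7c lies between 135 and 203 CPM in all 10 mice, and treated mice 1 and 5 are the first and last red points of each gene.

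Ugt1a9, a relative of human UGT1A9, which conjugates bulky phenols, had nearly equal values in both groups. Counts were 29, 26, 25, 30 and 31 in controls and 34, 38, 26, 25 and 42 with oxaliplatin, a log2 fold change of -0.01 (SE 0.23). Ugt1a10 and Ugt1a9, neighbours with 86.9% identical first exons, thus had mean CPM 6.59 and 0.992 times those of the controls. Ugt1a8, a gene of the same locus that is not among the 8 members, had 20, 42, 26, 34 and 43 counts in controls and 35, 45, 33, 33 and 46 with oxaliplatin, with a log2 fold change of -0.02 (SE 0.25, adjusted p = 0.97 in edgeR).

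Ugt1a7c was the member with the most counts by far. It had 5240, 4914, 3821, 4117 and 4340 counts in controls and 4375, 6033, 5325, 5027 and 4508 with oxaliplatin. The means were 178 ± 13 and 173 ± 27 CPM (SD, n = 5 each) and the log2 fold change was -0.04 (SE 0.10). Treated mice 1 and 5, the highest for Ugt1a2, were the lowest for Ugt1a7c, at 157 and 135 CPM against 176 to 203 CPM in treated mice 2 to 4. Since the end of exon 5 counts to Ugt1a7c, part of its counts may come from transcripts of other members.

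The make-up of the summed counts changed more than their sum. Summed over the 8 members, controls had between 173 and 204 CPM and treated mice had 298, 222, 208, 201 and 334 CPM, and the log2 ratio of the group means was 0.44 (SD between mice 0.25 on the log2 scale). The groups overlapped by treated mouse 4 alone, at 201 CPM against a highest control of 204 CPM. Without mice 1 and 5 the log2 ratio was 0.19. Ugt1a7c made up between 95.5% and 95.99% of the summed counts in each control mouse, and 52.6%, 91.7%, 92.2%, 87.8% and 40.5% in treated mice 1 to 5. Ugt1a2 made up between 0.330% and 0.525% in controls, and 42.4% (95% Wilson interval 41.3 to 43.5) in treated mouse 1, 2.98% in mouse 2, 3.20% in mouse 3, 6.60% in mouse 4 and 54.4% (53.4 to 55.3) in mouse 5. In mouse 5 Ugt1a2 had more counts than Ugt1a7c. Without Ugt1a2, the sum of the other 7 members was 185 ± 13.96 CPM in controls and 186 ± 24.5 CPM with oxaliplatin (SD, n = 5 each).

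**Figure D2:**
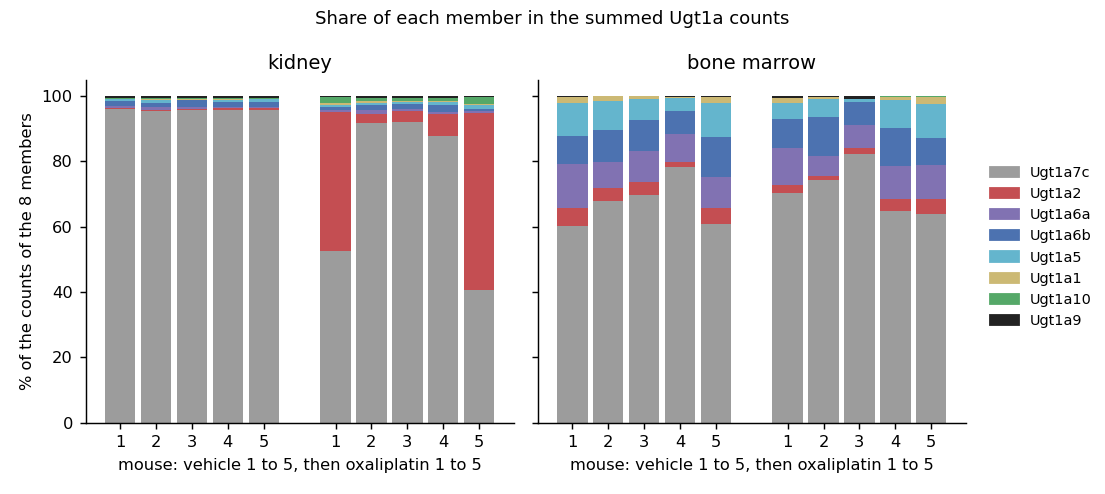
Percent of the summed counts of the 8 members that each member contributes, 1 stacked bar per mouse, in kidney and bone marrow. Ugt1a7c holds at least 95.5% of the bar in the 5 control kidneys and 40.5% in treated kidney 5, while in bone marrow it holds between 60.2% and 82.3% in all 10 mice.

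Per kb of bases of no other gene, the order of the mean levels in control kidney was Ugt1a7c (92.9 CPM per kb), Ugt1a6b (3.32), Ugt1a9 (1.28), Ugt1a5 (1.15), Ugt1a1 (0.946), Ugt1a2 (0.773), Ugt1a10 (0.657) and Ugt1a6a (0.482). From Ugt1a9 downwards the ranges over the 5 mice of neighbours overlapped, so only Ugt1a7c and Ugt1a6b held places of their own. With oxaliplatin the order began with Ugt1a7c (90.2 CPM per kb), Ugt1a2 (74.3), Ugt1a10 (4.33) and Ugt1a6b (3.37). The ranges over the 5 mice of every pair of neighbours overlapped, although Ugt1a2 was above Ugt1a10 within each treated mouse. Ugt1a2 ranged from 7.33 to 202 CPM per kb and so crossed Ugt1a7c, which ranged from 70.6 to 106. The places of the 4 low members Ugt1a1, Ugt1a2, Ugt1a6a and Ugt1a10 depend on the length used: with all exonic bases Ugt1a1 moved from place 5 to place 8.

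The locus also holds 8 intronic genes annotated as unprocessed pseudogenes (Gm15368 to Gm15374, and Gm15376), which were examined after the member values had been seen. In control kidney their means lay between 0.636 and 2.02 CPM per kb, a range that holds the means of Ugt1a9, Ugt1a5, Ugt1a1, Ugt1a2 and Ugt1a10. With oxaliplatin their mean CPM were between 1.08 and 1.97 times the control means, against 1.71 for Ugt1a6a, 2.08 for Ugt1a5, 3.39 for Ugt1a1, 6.59 for Ugt1a10 and 96.1 for Ugt1a2. Of the 7 that were tested in kidney 0 were called by edgeR (5 had an unadjusted p under 0.05), with a median log2 fold change of 0.77. Whether reads from unspliced RNA of the locus add to the low members was not tested.

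**Figure D3:**
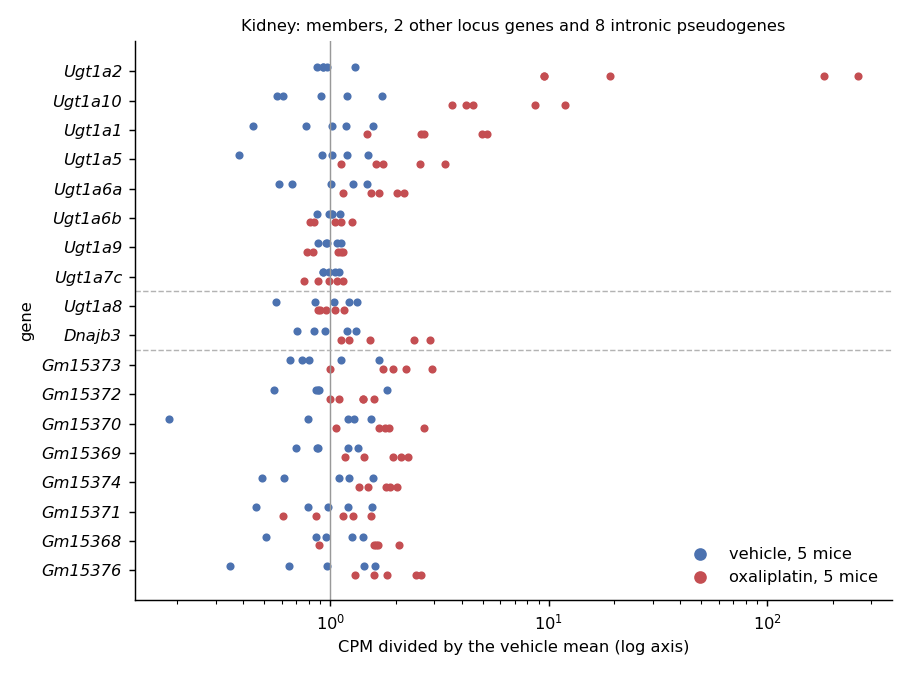
CPM in each kidney divided by the mean of the control mice, on a log axis, for the 8 members, Ugt1a8 and Dnajb3, and 8 pseudogenes inside the locus, with 5 control points above 5 oxaliplatin points for each gene. The treated mice lie between 9.49 and 261 for Ugt1a2 and between 3.63 and 11.9 for Ugt1a10, and the means of the pseudogenes lie between 1.08 and 1.97.

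Dnajb3, a single-exon cochaperone gene on the opposite strand between the first exons of Ugt1a2 and Ugt1a1, was called higher in kidney. It had 1.16, 1.64, 1.30, 1.81 and 0.972 CPM in controls and 3.34, 1.68, 2.09, 1.54 and 3.93 CPM with oxaliplatin, again highest in mice 1 and 5, with a log2 fold change of 0.87 (SE 0.28, adjusted p = 0.025 in edgeR). Without mice 1 and 5 it was 0.37 (SE 0.27, adjusted p = 0.37) and no longer called. In bone marrow Dnajb3 was called lower, from 7.02 ± 0.66 to 2.59 ± 0.72 CPM (SD, n = 5 each), with a log2 fold change of -1.44 (SE 0.21, adjusted p = 0.00018).

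Treated mice 1 and 5 also stood apart in genes outside the locus. Cyp4a14, a fatty acid hydroxylase gene that PPAR alpha induces, was at 571, 112, 87.5, 219 and 644 CPM in treated mice 1 to 5 and between 6.44 and 51.8 CPM in controls. Kap, the androgen-regulated protein of the proximal tubule, was at 831, 3509, 3500, 2897 and 362 CPM against 7258 to 8998 in controls. Epo, the erythropoietin gene, was at 206, 28.2, 104, 66.0 and 219 CPM and at most 0.259 CPM in controls. Among the treated mice the 2 with the most Ugt1a2 thus had the most Cyp4a14 and Epo and the least Kap. What these mice have in common beyond these values was not tested.

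**Figure D4:**
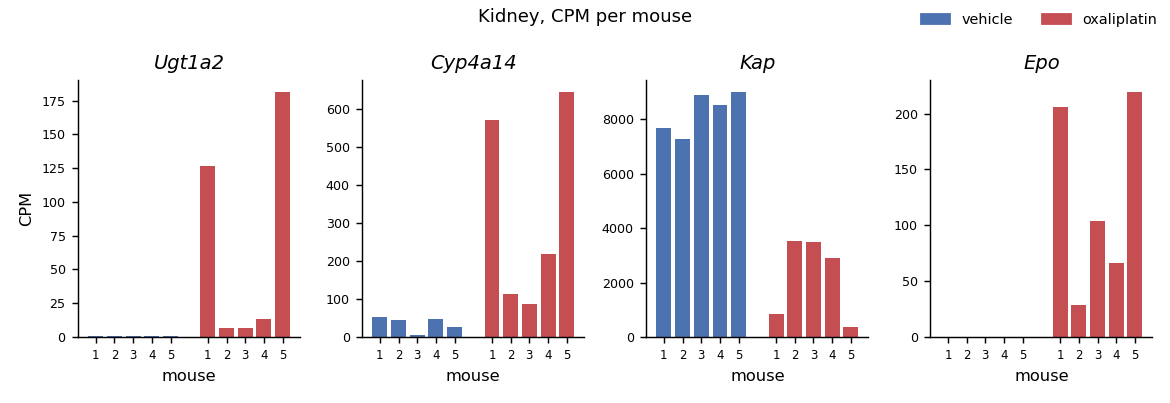
CPM of Ugt1a2, Cyp4a14, Kap and Epo in each of the 10 kidneys, 1 bar per mouse, on axes that start at 0. Treated mice 1 and 5 have the highest bars for Ugt1a2, Cyp4a14 and Epo and the lowest for Kap.

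The genes whose kidney values followed the summed members most closely from mouse to mouse, with each group's mean subtracted and over 10 mice, were Rassf4 (Pearson r 0.96), Tcea2 (0.96), Prrc2b (0.95), Hs2st1 (0.95) and Mab21l3 (0.95), out of 13632 genes compared. Such values are the extremes of many genes over few mice that share their libraries, and are a description. Mab21l3 was at 16.9 and 18.9 CPM in treated mice 1 and 5, between 5.69 and 5.86 in treated mice 2 to 4 and between 2.11 and 2.40 in controls. For Ugt1a2 and Ugt1a7c alone, choices made after their values were seen, the closest were Mnt (r 0.98) and Cyp2a5 (r 0.98). Cyp2a5 was at 183 and 129 CPM in treated mice 1 and 5, between 298 and 426 in treated mice 2 to 4 and between 328 and 529 in controls.

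The labelled tissue was checked by its markers. All 12 proximal tubule markers were tested in kidney, and their summed level was 27757 to 32786 CPM in controls and 17152 to 23615 CPM with oxaliplatin (exact permutation p = 0.00794, the smallest that 5 against 5 mice can give, adjusted p = 0.0129 over the marker lists), with 5 of the 12 called lower by edgeR. The markers did not move as one: Kap, whose values are given above, made up most of the difference in the sum, while Cubn was at 689 to 898 CPM in controls and 855 to 1049 with oxaliplatin and Slc5a12 at 243 to 363 and 354 to 464 CPM. Other kidney lists also differed at the same p and adjusted p. The 4 podocyte markers summed to 231 to 239 CPM in controls and 334 to 411 CPM with oxaliplatin, with 3 called higher. The loop of Henle list went from 2936 to 3624 CPM to 3792 to 3997 CPM, the collecting duct list from 554 to 670 CPM to 718 to 866 CPM, and the leukocyte list from 89.5 to 111 CPM to 53.8 to 70.5 CPM. Of the 4 loop of Henle markers 0 were called, and of the 6 collecting duct markers 1 was called higher and 0 lower. Of the 4 leukocyte markers tested, 1 was called higher and 1 lower. Csf1r, most of that sum, was at 70.4 to 93.6 CPM in controls and 32.6 to 51.6 CPM with oxaliplatin, and Lyz2 at 4.99 to 9.07 and 8.88 to 18.4 CPM. The 6 intestine markers summed to 0.229 to 0.691 CPM in controls and 0.324 to 2.63 CPM with oxaliplatin, and Sis and Alpi had no count in any kidney. Most of the highest sum, that of treated mouse 4, was Krt20 at 2.18 CPM, a gene that is also on the tubular injury list. The 10 hepatocyte markers summed to 178 to 239 CPM in controls and 108 to 163 CPM with oxaliplatin (exact permutation p = 0.00794, adjusted p = 0.0129). Within that list the members differed: Ttr was at 115 to 181 CPM in controls and 29.6 to 65.9 CPM with oxaliplatin, Alb was highest in treated mouse 2 at 22.9 CPM, and Serpina1a, at 58.3 and 54.8 CPM, and Fga, at 35.0 and 28.9 CPM, were highest in treated mice 1 and 5. Adipocyte markers rose from a summed 1.25 to 7.47 CPM in controls to 8.27 to 23.9 CPM with oxaliplatin (exact permutation p = 0.00794, adjusted p = 0.0129), with 3 of the 5 called higher and Cidec highest in treated mice 1 and 5 at 10.05 and 9.03 CPM. The 7 tubular injury markers summed to 496 to 566 CPM in controls and 705 to 794 CPM with oxaliplatin (exact permutation p = 0.00794, adjusted p = 0.0129), with 2 of the 6 tested called higher. This sum rested on Spp1, at 272 to 318 CPM in controls and 499 to 628 CPM with oxaliplatin, while Clu was at 202 to 239 and 127 to 247 CPM and Havcr1 lay between 0.438 and 1.40 CPM in all 10 kidneys. The part of these markers in the Ugt1a values was not tested.

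In bone marrow no member separated the groups. Of the 8 members 6 passed the filter on low counts, and 0 of these met the call, against 23.3% of the 22363 genes tested, while the groups overlapped for all 8 (5573 genes, 24.9% of those tested, did not overlap). Log2 fold changes of the 6 members lay between -0.43 and -0.09 with standard errors from 0.31 to 0.79, and their median was -0.17 against -0.04 over all genes tested. Nothing is read from these counts either, since the rule named this contrast.

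Ugt1a7c again had the most counts in marrow, with 551, 589, 682, 720 and 764 in controls and 928, 514, 303, 674 and 1134 with oxaliplatin. Its means were 20.3 ± 3.2 and 19.1 ± 9.5 CPM (SD, n = 5 each), and the treated mice spread over more than the whole range of the controls. Ugt1a2 had 51, 33, 37, 15 and 58 counts in controls and 33, 8, 6, 40 and 83 with oxaliplatin, a log2 fold change of -0.43 (SE 0.61). The separation seen for Ugt1a2 in kidney was thus not seen in marrow, where control and treated mice overlapped.

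Ugt1a5 had 91, 78, 62, 36 and 129 counts in control marrow and 65, 39, 4, 89 and 187 with oxaliplatin. Ugt1a6a ran from 70 to 123 counts in controls and from 26 to 185 with oxaliplatin, Ugt1a6b from 64 to 155 and from 26 to 144, and Ugt1a1 from 3 to 23 and from 0 to 35. Treated mouse 3 was the lowest of all 10 marrows for each of these 4 genes and treated mouse 5 was the highest for 3 of them, Ugt1a6b excepted, where control mouse 5 was highest. The same treated mice stood apart in some leukocyte genes. Treated marrow 3 had 24.7 CPM of Itgam, 163 of Ptprc and 842 of Ltf, the lowest of all 10 marrows. Treated marrow 5 had 130 CPM of Itgam and 4800 of Ltf, the highest, but its Ptprc (619 CPM) was below that of control marrow 5 (710 CPM). Other myeloid genes went the other way: treated marrow 3 had the most Mpo (2101 CPM) and Elane (826 CPM) of all 10 marrows. The 6 leukocyte markers summed to 3314 to 4195 CPM in controls and 1470 to 3840 CPM with oxaliplatin (exact permutation p = 0.0556, adjusted p = 0.0903), the 9 marrow markers to 19240 to 27586 and 7299 to 13807 CPM (p = 0.00794, adjusted p = 0.0206, exact permutation) and the 5 adipocyte markers to 16.4 to 38.6 and 133 to 711 CPM (p = 0.00794, adjusted p = 0.0206, exact permutation), with 5 of 5 called higher. The marrow markers did not move as one: 3 were called lower and 1 higher. Hbb-bs, a hemoglobin gene at 7541 to 14431 CPM in controls and 763 to 2561 with oxaliplatin, made up most of the difference in the sum. Pf4 was at 130 to 211 and 368 to 651 CPM, and S100a8 at 1923 to 2545 and 1135 to 3102 CPM. The part of these cells in the Ugt1a values of marrow was not tested. Ugt1a9 had at most 8 counts in any marrow, and Ugt1a10 had 0 in the 5 controls and 1, 0, 0, 2 and 4 with oxaliplatin.

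The low marrow members were set beside the pseudogenes mouse by mouse. The 6 members other than Ugt1a2 and Ugt1a7c summed to between 5.30 CPM (mouse 4) and 14.005 CPM (mouse 5) in controls and to 10.3, 5.33, 1.38, 7.30 and 15.01 CPM with oxaliplatin. The 8 pseudogenes summed to between 3.90 CPM (mouse 4) and 19.5 CPM (mouse 5) in controls and to 15.1, 5.52, 1.75, 9.19 and 18.7 CPM with oxaliplatin. Treated mouse 3 was lowest and mouse 5 of each group highest in both sums. In control kidney mice 2, 1 and 5 were, in this order, the highest in both sums, which ran from 6.56 to 8.23 CPM for the members and from 3.84 to 8.498 CPM for the pseudogenes. In treated kidneys the members summed to 14.97, 11.8, 9.53, 11.2 and 17.01 CPM and the pseudogenes to 6.75, 8.65, 7.23, 9.40 and 9.93 CPM, so mouse 5 was highest in both and mouse 1 was second in the members and lowest in the pseudogenes. Whether marrow counts of these members come from spliced transcripts was not tested.

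**Figure D5:**
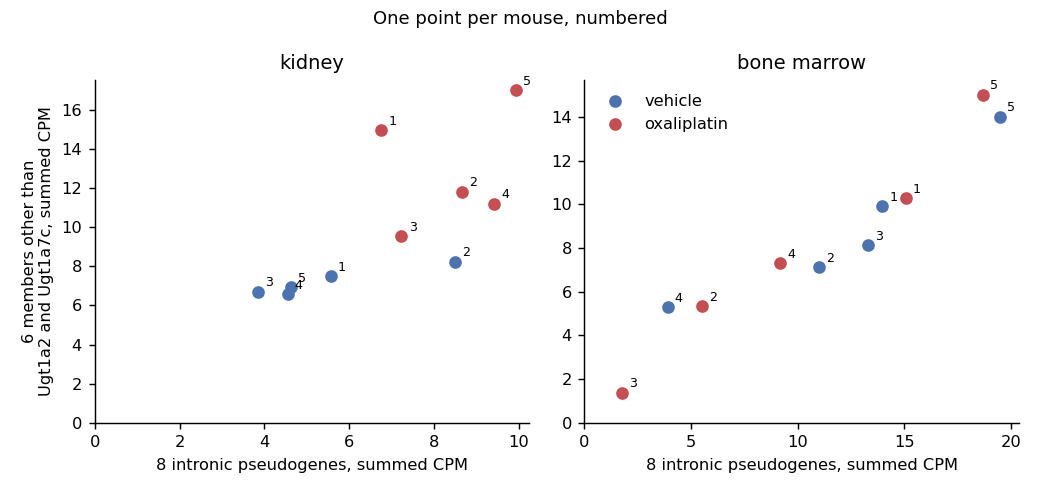
Summed CPM of the 6 members other than Ugt1a2 and Ugt1a7c (y axis) against summed CPM of the 8 intronic pseudogenes (x axis), 1 numbered point per mouse, in kidney and bone marrow. In marrow treated mouse 3 is lowest on both axes and mouse 5 of each group is highest, and in kidney treated mouse 1 has 14.97 CPM for the members at 6.75 CPM for the pseudogenes.

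Vehicle kidney and vehicle bone marrow were compared as a contrast that did not enter the choice of the members. The tissues differed in RNA extraction, column alone for kidney and TRIzol with a column for marrow, so tissue and extraction cannot be told apart. In this comparison 74.9% of 21703 genes were called, 35.5% higher in kidney and 39.4% higher in marrow, and 77.0% had groups that did not overlap. Values here are CPM under a joint scaling of the 10 control libraries.

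Of the 7 members tested between the tissues, 2 were called higher in kidney and 2 higher in marrow. Ugt1a7c was at 180 to 212 CPM in kidney and 14.2 to 20.8 CPM in marrow, a log2 difference of 3.53 (SE 0.10, adjusted p = 6e-17 in edgeR). Ugt1a9 was at 1.09 to 1.37 CPM in kidney and 0 to 0.0815 CPM in marrow, a log2 difference of 4.63 (SE 0.46, adjusted p = 2.1e-08). Ugt1a8, outside the 8, had the same pattern, with a log2 difference of 4.06 (SE 0.53, adjusted p = 9.9e-07). Ugt1a10 had no count in the 5 control marrows and was not tested there. Its kidney mean of 0.581 CPM was at least 7.1-fold higher than the floor of 3 counts in the control marrow library with the highest floor. The kidney values of these genes lay above every marrow value.

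Ugt1a6a was lower in kidney, at 0.663 to 1.67 CPM against 1.69 to 3.29 CPM in marrow (log2 difference -1.14, SE 0.29, adjusted p = 0.0013 in edgeR), narrowly without overlap. Of its 2142 countable bases 1920 are the retained intron, so this difference says little of its first exon. Ugt1a5 was at 0.424 to 1.67 CPM in kidney and 0.855 to 3.504 CPM in marrow, with a log2 difference of -0.87 (SE 0.36, adjusted p = 0.033) and overlapping groups, and this call was lost when any of 5 single mice was left out. Of the 8 pseudogenes, 2 were called higher in marrow and 0 in kidney, with log2 differences from -1.59 to -0.35. Ugt1a1 (0.25, SE 0.49, adjusted p = 0.65), Ugt1a2 (-0.40, SE 0.36, adjusted p = 0.30) and Ugt1a6b (0.47, SE 0.24, adjusted p = 0.076) did not pass the test.

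Per kb of bases of no other gene, the order in control marrow was Ugt1a7c (10.6 CPM per kb), Ugt1a6b (3.15), Ugt1a5 (2.76), Ugt1a6a (1.41), Ugt1a2 (1.34), Ugt1a1 (1.06), Ugt1a9 (0.0627) and Ugt1a10 (0). Ugt1a7c stood above the others without overlap, as did, with this length, the group from Ugt1a6b to Ugt1a1 above Ugt1a9. Within that group neighbours overlapped. The gap between Ugt1a1 and Ugt1a9 depends on the length used. With bases of no other gene of the same strand, the lowest Ugt1a1 value (0.0937 CPM per kb) lay below the highest Ugt1a9 value (0.111). With all exonic bases these values were 0.0384 and 0.0445 CPM per kb, so the ranges overlapped there too. Ugt1a7c made up 60.2% to 78.2% of the members' counts in control marrow, a smaller share than in any control kidney.

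The remaining genes of the pathway were taken from lists chosen with earlier results of these data known. The enzymes that supply UDP-glucuronic acid moved little: 0 of 8 met the call in kidney, although all 8 had an adjusted p under 0.05 in edgeR. Ugdh, which makes UDP-glucuronic acid from UDP-glucose, went from 83.9 ± 1.6 to 65.5 ± 7.9 CPM (SD, n = 5 each; log2 fold change -0.36, SE 0.08, adjusted p = 0.0019). Of the genes that make UDP-glucose (Pgm1, Ugp2), carry nucleotide sugars across membranes (Slc35d1, Slc35d2, Slc35b1) or split UDP (Entpd5), each fell by 0.21 to 0.49 on the log2 scale, and Pgm2 rose by 0.32. The median of the 8 was -0.37 against 0.02 over all genes.

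Other UDP-glycosyltransferases differed from Ugt1a2 in direction. Of 14 listed, 9 were tested in kidney, 0 were called higher and 5 lower, beside 3.81% of all genes called lower. Ugt2b38 went from 240 to 346 CPM in controls to 51.3 to 135 CPM with oxaliplatin (log2 fold change -1.44, SE 0.26, adjusted p = 0.0033 in edgeR). Ugt3a2, of a family that uses other sugars, went from 851 to 938 CPM to 374 to 583 CPM (log2 fold change -0.85, SE 0.10, adjusted p = 2.3e-05). Ugt8a (-1.02), Ugt2b5 (-0.99) and Ugt3a1 (-0.68) also fell, and Ugt2b34 rose by 0.52 without passing 1.5-fold. Without treated mice 1 and 5 Ugt3a1 no longer passed 1.5-fold (-0.51, adjusted p = 4.6e-05). Ugt2b36, which was not called with all mice, was called lower in that fit (-1.97, SE 0.58, adjusted p = 0.022 in edgeR). That fit was chosen after the values of these mice were seen, so its calls are a description. Gusb, the lysosomal enzyme that removes glucuronic acid, fell by 1.19 on the log2 scale (SE 0.12, adjusted p = 1e-05).

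Regulators known to act on UGT1A genes, 15 of 18 tested in kidney, gave 0 calls in edgeR, although 4 had an adjusted and 7 an unadjusted p under 0.05. Ahr had a log2 fold change of 0.28 (adjusted p = 0.13 in edgeR), the pregnane X receptor gene Nr1i2 0.28 (0.14) and Ppara 0.09 (0.65), while Nfe2l2, which encodes NRF2, rose by 0.28 (0.010) and Hnf4a fell by 0.36 (0.0021), both within 1.5-fold. Target genes of these regulators were mixed. Of the AhR targets 2 of 3 tested were called higher, Cyp1a1 at 0.597 to 0.891 CPM in controls against 0.863 to 4.18 with oxaliplatin and Cyp1b1 at 21.7 to 24.9 against 35.6 to 53.6 CPM. Of 9 NRF2 targets Gsta4 was called higher and Gclm and Me1 lower, and of 5 CAR and PXR targets Abcb1a was called higher and Cyp2b10 lower. Of 8 PPAR alpha targets tested, 1 was called higher and 1 lower. The 1 called higher was Cyp4a14 (log2 fold change 3.22, SE 0.78, adjusted p = 0.015). Ehhadh fell by 0.51 on the log2 scale, within 1.5-fold, from 567 to 734 CPM in controls to 351 to 539 CPM with oxaliplatin. Without mice 1 and 5 the calls of Cyp4a14 (2.00, SE 0.63, adjusted p = 0.078) and Abcb1a (0.55, SE 0.21, adjusted p = 0.080) were lost. Other calls were gained in that fit. The regulator gene Hnf4g (-0.61, SE 0.16, adjusted p = 0.0097 in edgeR) and the PPAR alpha target Ehhadh (-0.75, SE 0.09, adjusted p = 7.8e-06) were called lower. The NRF2 target Hmox1 was called higher (1.49, SE 0.38, adjusted p = 0.039). Its level was 113 and 126 CPM in treated mice 2 and 4. Treated mice 1, 3 and 5, at 38.2, 42.1 and 38.7 CPM, lay within the control range of 26.5 to 45.0 CPM. Mice 1 and 5 were left out after their values were seen, so calls lost or gained in that fit are a description.

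Among 16 other conjugation enzymes 1 was called higher in kidney, Ephx1, a microsomal epoxide hydrolase (log2 fold change 2.17, SE 0.09, adjusted p = 2.3e-10 in edgeR), and 5 lower: Acsm3, Acsm2, Ephx2, Glyat and Nat2. Without treated mice 1 and 5 the calls of Nat2 (-0.38, adjusted p = 0.076) and of Glyat (-0.55, under 1.5-fold, adjusted p = 1.5e-05) were lost. Of 12 genes for heme breakdown and bilirubin handling, the efflux pump genes Abcc3 (1.83) and Abcc4 (0.98) were called higher and the uptake transporter genes Slco1a1 (-3.63) and Slco1a6 (-0.87) lower. Of the 104 listed genes, which include the genes flanking the locus, 91 were tested in kidney and 9 were called higher and 17 lower, beside 7.68% and 3.81% of all genes. In bone marrow 65 were tested, with 13 called higher and 11 lower, beside 11.6% and 11.8% of all genes. There Ugt8a was the 1 other UDP-glycosyltransferase tested and was called higher (log2 fold change 2.14, SE 0.22, adjusted p = 1e-05), and Pgm1 was the 1 supply gene called (1.00, SE 0.11, adjusted p = 1.5e-05).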

How the data were processed

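Both tables hold raw counts per gene, which the authors deposited without normalization: the study's methods name STAR, run against Ensembl 101 for mouse, and counting in Partek Flow of reads with 1 alignment and 1 gene, while the submitters' processing notes name bcl2fastq, STAR, Subread, featureCounts and Salmon. The methods describe SMARTer cDNA, and the sample records describe removal of ribosomal RNA with random priming, which do not match. RNA with an integrity number above 7 was used. Each table held 55774 lines, of which duplicates of an identifier, all with the same counts, and a single incomplete line were dropped, leaving 55486 genes.

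Groups came from the labels. The members and gene lists were chosen with earlier results of these data known. In each tissue genes were filtered (filterByExpr, minimum count 10), scaled by TMM and tested with edgeR 4.0.16 (R 4.3.3, limma 3.58.1; robust quasi-likelihood, two-sided, Benjamini-Hochberg over all genes tested), and the 2 vehicle groups were compared in the same way on both tables joined by identifier. Marker lists were compared as summed CPM with exact two-sided permutation tests, adjusted over the lists of a tissue. Likeness was Pearson's r of log2 CPM (prior count 2). Genes named are the members, Ugt1a8, Dnajb3, listed genes that were called or had an adjusted p under 0.05, receptors and supply enzymes, and the 5 genes most like the summed members; in bone marrow, and for some listed genes, counts stand for the names. Some listed genes are not reported here. Genes shown beside treated mice 1 and 5 were chosen after their values were seen. Positions and exon lengths came from GENCODE mouse release 21 (GRCm38), which may differ from the annotation used for counting, and promoters from RefSeq. The steps were tested on simulated counts. Alternatives were DESeq2 1.42.0, other scalings, filters and thresholds, a block for replicate number, summed Y-linked genes as a covariate, leaving out mice, and other lengths. Figures were drawn with Python and matplotlib 3.10.9.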

Additional observations from a re-analysis of the deposited data

Results flagged for a closer look

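In 7 of 156 groups of 5 mice, 1 mouse lay far from the other 4 by Dixon's criterion (gap over range above 0.71), close to the 1 in 20 that chance gives. Among the members, control kidney 3 was high for Ugt1a2 (0.907 CPM against 0.607 to 0.672 in the other controls). This is 21 counts against 15 to 18, a difference of few counts. Treated marrow 1 was high for Ugt1a9 (0.230 CPM, 8 counts). Treated kidneys 1 and 5 did not meet the criterion for Ugt1a2, because 2 mice stand apart together. Among listed genes, treated kidney 4 was high for Cyp1a1 (4.18 CPM), control marrow 5 was low for Blvrb (260 CPM) and Hjurp (467 CPM), control marrow 4 was high for Ehhadh (7.15 CPM) and treated marrow 3 was high for Gclm (203 CPM).

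Listed genes were examined if reported here, tested in both tissues and called in at least 1 of them. For 10 of these genes every treated mouse lay on one side of every control in kidney and on the other side in marrow. These differences between tissues were not tested. Of all genes tested, 20.7% in kidney and 24.9% in marrow had groups that did not overlap in either direction. How many of all genes lay on opposite sides was not counted, so nothing is read from the number 10. Lower in kidney and higher in marrow, as log2 fold changes, were Ugt8a (-1.02 and 2.14), Ephx2 (-1.09 and 1.92), Me1 (-1.08 and 3.28), Ehhadh (-0.51 and 1.05), Gusb (-1.19 and 0.44) and Pgm1 (-0.39 and 1.00). Higher in kidney and lower in marrow were Abcc3 (1.83 and -1.46), Abcc4 (0.98 and -0.25), Nqo1 (0.34 and -1.11) and Hjurp (0.58 and -0.71). No Ugt1a member was among them, since all 8 overlapped between the marrow groups.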

How the results depend on the processing

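The kidney log2 fold changes of Ugt1a2, Ugt1a10, Ugt1a1, Ugt1a5 and Ugt1a6a stayed positive under every alternative run, those of Ugt1a6b, Ugt1a9 and Ugt1a7c stayed between -0.11 and 0.20, and the marrow values of the 6 members tested lay between -1.29 and 0.16, the lowest with Y-linked genes as a covariate. Leaving out 1 mouse moved Ugt1a2 between 5.79 and 6.88 and the summed members between 0.33 and 0.52 in kidney and between -0.38 and 0.10 in marrow. Leaving out treated mice 1 and 5 together, chosen after seeing the data, gave 3.67 for Ugt1a2, 2.02 for Ugt1a10 and 0.19 for the sum, with 1520 genes called. Stricter thresholds lowered the counts of called genes. A test against 1.5-fold gave 454 in kidney and 2730 in marrow, with 8 listed genes in kidney. A change beyond 2-fold gave 941 and 3231, with 14 listed genes in kidney and 15 in marrow. Scaling by library size alone moved the median log2 fold change of all kidney genes from 0.02 to 0.16 and gave 2245 higher of 2715 called, against 1481 of 2216, and 3431 of 5415 in marrow, against 2589 of 5221. Between the tissues, a minimum of 10 counts in every sample left 10361 called genes because fewer were tested. Ugt1a1 turned to -0.15 with library size alone and was -0.015 without control marrow 4, in a range of -0.01 to 0.42 over the 8 fits without 1 mouse that kept it (without control marrow 1 or 5 it gave no value). With Y-linked genes as a covariate, Ugt1a6a was 0.86, Ugt1a5 0.38 and Ugt1a2 0.96, none with an adjusted p under 0.05, and Ugt1a1 3.00 (adjusted p = 0.028 in edgeR). The summed Y-linked level does not overlap between the tissues (82.3 to 106 CPM in kidney, 156 to 173 in marrow), so that fit cannot tell it from tissue. The Ugt1a5 call was lost without control marrow 1 or 5 or control kidney 1, 3 or 4 (adjusted p from 0.054 to 0.13), and Ugt1a6b passed the test without control marrow 5 (0.74, adjusted p = 0.0029). Correlations of same-numbered libraries lay between -0.15 and 0.23, and between -0.06 and 0.02 for control kidney against control marrow. Control and treated libraries come from different mice, and unlike tissues of 1 mouse need not correlate. These values therefore cannot tell whether a replicate number marks the same mouse in both tissues. With the replicate block 2017 genes were called in kidney, 4968 in marrow and 16030 between the tissues, and Ugt1a6b passed the test between the tissues (0.54, adjusted p = 0.049). The summed members take no covariate or threshold, so the block, the Y-linked covariate and the stricter thresholds give no value for them. At these depths Ugt1a9 and Ugt1a10 in marrow are too low for a comparison between treatments.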
